A study of Sus scrofa with 6 samples.

Results

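Splicing factors and RNA-binding proteins were followed across 2 untreated pig cell lines by their gene symbols. The members are the genes whose symbol in the platform's probe-to-gene table begins with SRSF, SF3A, SF3B, SNRP, HNRNP, PRPF, U2AF or RBM, or with LSM and a digit, among probe sets that carry exactly 1 symbol. The rule used no measured value and found 84 genes of 6765, read by 135 probe sets, and each gene is represented by its brightest probe set, judged by the mean of the 6 arrays. OBGF400, a line of olfactory bulb neuroblast origin grown in a DMEM/F12/HAM medium, was compared with PK15, a non-neuronal line of epithelial origin grown in minimum essential medium with amphotericin B, both with 10% bovine calf serum. Each group is a single line, and its 3 arrays are 3 RNA pools made from 9 cultures, so p-values measure the spread between pools. Medium and line cannot be told apart, and neither can batches of labelling or hybridization, where they followed the lines.

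Introns are removed by the spliceosome, which is built from small nuclear ribonucleoproteins (snRNPs), each a small nuclear RNA carried on a ring of Sm or LSm proteins. The SF3A and SF3B proteins and U2AF recognise the branch site and the end of the intron, and the PRPF proteins join and activate the later complexes. SR proteins (SRSF genes) mostly favour the use of exons they bind, whereas hnRNP proteins often oppose it, and many RBM proteins tune these choices. Switches between epithelial and mesenchymal states are known for changes in exon choice, in which ESRP proteins act on the epithelial side and QKI and RBFOX2 on the mesenchymal side.

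The deposited values are log2 signals, with a shared lower limit, called the floor here, of 2.13. In both lines 15.5% of genes stayed at the floor, meaning no more than 0.1 above it on any array, as did 1 member, U2AF2. All 9 measured epithelial markers, among them CDH1 and KRT8, were lower in OBGF400. Of the 9 measured mesenchymal markers, 8 were higher. The exception was COL3A1, whose probe set was near the floor in both lines (2.65 in OBGF400, 2.58 in PK15). The neuronal markers SNAP25, GAP43, STMN2 and NEFL were at the floor in both lines, whereas UCHL1, MAP2 and NCAM1 were higher in OBGF400. Of 6 leukocyte markers, PTPRC was at the floor in both lines, LAPTM5, AIF1 and SPI1 were lower in OBGF400 and CD14 and CD3E higher. All 7 measured cell cycle markers were lower in OBGF400 as deposited, PCNA becoming 0.07 by spike scaling (defined below), with a summed level, as log2 of the summed linear signals, of 10.82 to 11.61 in OBGF400 and 13.28 to 13.38 in PK15. Probe sets for 28S rRNA were higher in OBGF400 by 0.54 and 1.60, while the 18S rRNA probe sets differed by -0.32 and 0.09. Actin control probe sets differed by 0.53 to 0.80 at the 5′ end, 0.05 and 0.35 at the 3′ end and 0.19 and 3.65 in the middle. Those of GAPDH differed by -0.43 to -0.13 at the 5′ end and -0.45 to -0.37 at the 3′ end. The part of proliferation, RNA quality and other cell types in the results was not tested. Scaling the arrays on the hybridization controls (spike scaling) moved the median difference of all genes to 0.85, and the use of the poly-A spikes dap and thr for scaling (dap/thr scaling) moved it to -0.86. Differences smaller than these shifts therefore took their sign from the scaling.

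The lines differed in 65 of the 84 members, 25 higher and 40 lower in OBGF400 (limma over all genes, Benjamini-Hochberg adjusted p under 0.05, a gene past it being described as called). That is 77.4% of the members, against a background of 60.8% of all genes and of 71.9% of the 5718 genes not at the floor in both lines. In each direction 29.8% of members were higher, against 23.9% of all genes, and 47.6% were lower, against 36.8%. Of the genes not at the floor, 28.3% were higher and 43.6% lower. By spike scaling 51 members were higher and 9 lower, whereas dap/thr scaling left 6 higher and made 61 lower. As a share of the calls, those higher in OBGF400 made up 38.5% of members as deposited, 85% by spike scaling and 8.96% by dap/thr scaling. For all genes these shares were 39.4%, 78.9% and 12.6%. Both control scalings shift genes at the floor by a constant, so such genes were called without a measured direction. Of the 5718 genes not at the floor in both lines, spike scaling called 3467 higher and 1209 lower. By dap/thr scaling 753 of them were higher and 4156 lower. Without U2AF2 the members numbered 50 higher with 9 lower by spike scaling, and 6 higher with 60 lower by dap/thr scaling.

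Most differences among the members were small. Their median difference (OBGF400 minus PK15, log2) was -0.26, against 0.00 for all genes. Leaving out genes at the floor in both lines, it was -0.30 for members against -0.16, and the median size regardless of sign was 0.68 for members against 0.80. A difference of at least 2-fold was called for 22 members (26.2%), 10 higher and 12 lower, against 35.7% of all genes and 42.3% of those not at the floor. By direction, the background was 13.8% of all genes higher and 22% lower by that much. For 70 members (83.3%) no array of one line fell within the range of the other, against 66.9% of all genes. Without the genes at the floor these shares were 84.3% and 79.1%. The median SD between arrays was 0.08 in OBGF400 and 0.12 in PK15. A signal is an average over the cells of a pool, so fewer cells with a transcript and less of it per cell cannot be told apart.

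**Figure D1:**
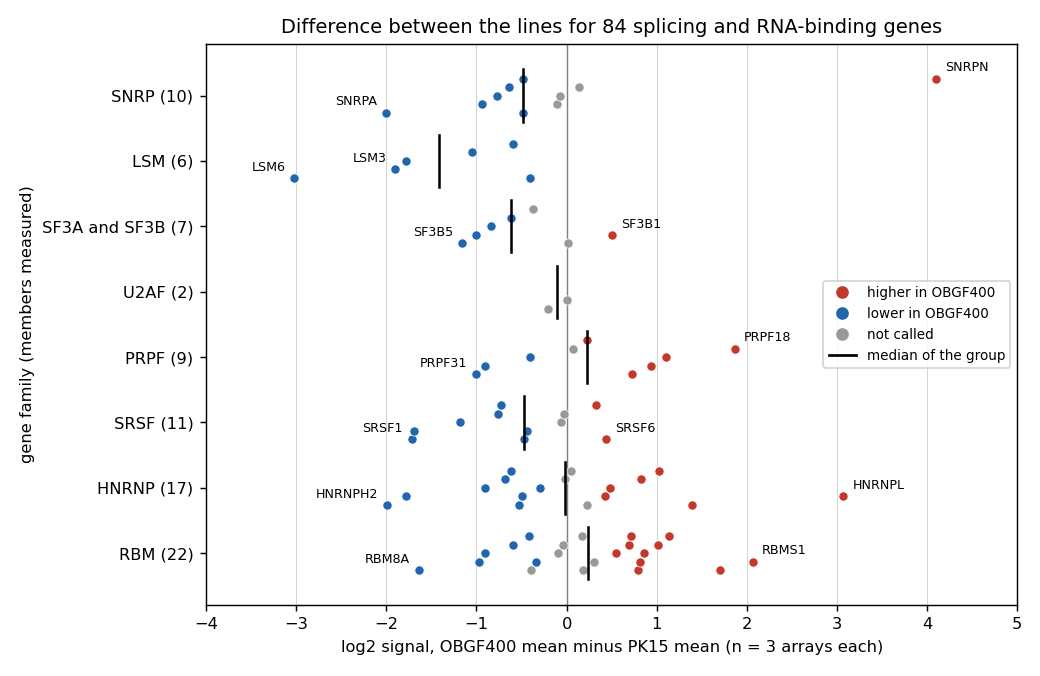
Differences of all 84 members between the lines, by family, on the log2 scale. Each point is 1 gene, coloured by its call, and the black bar is the family's median; the LSM genes lie wholly below 0, from -3.02 to -0.41, while SNRPN stands alone at 4.10.

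Scaling-independent members were few. By their brightest probe set, 6 of the 84 were called higher in OBGF400 as deposited and under both control scalings. They were SNRPN, HNRNPL, RBMS1, PRPF18, RBM18 and HNRNPU. The background was 749 of 6765 genes (11.1%), all of them among the 5718 not at the floor in both lines. Another 9 of the 84 were called lower under all of these, namely LSM6, SNRPA, HNRNPH2, LSM3, HNRNPH3, LSM12, SRSF1, SRSF9 and RBM8A. Here the background was 1203 of 6765 genes (17.8%), again all among those 5718. The values of these 15 genes on each array are given below with their families.

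**Figure D2:**
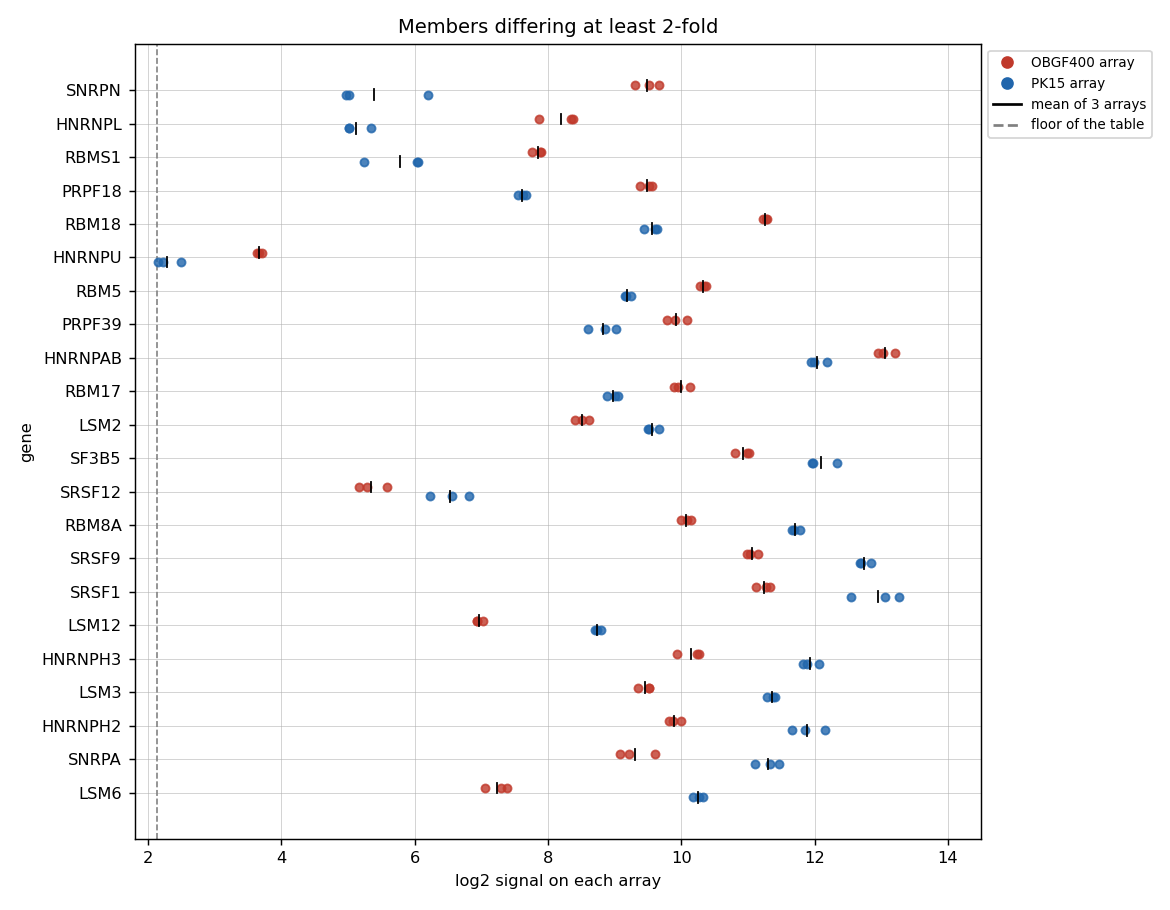
Log2 signal on every array for the 22 members that differed at least 2-fold, ordered by their difference, with a bar at the mean of 3 arrays. No member's OBGF400 and PK15 arrays overlap, and only HNRNPU lies near the floor of 2.13.

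Among the snRNP proteins, 6 of 10 SNRP genes were lower in OBGF400, 1 was higher and 3 were not called, with a median difference of -0.48, beside 36.8% of all genes lower and 43.6% of those not at the floor, but spike scaling turned this to 5 higher with 1 lower and dap/thr scaling to 1 higher with 9 lower. SNRPN, which encodes the SmN protein and is imprinted in mammals and abundant in brain, read 9.66, 9.51 and 9.30 on the OBGF400 arrays and 4.97, 6.20 and 5.02 on the PK15 arrays. Every OBGF400 array was far above every PK15 array, and PK15 replicate 2 stood above the other PK15 arrays. The means were 9.49 ± 0.18 and 5.39 ± 0.70 (SD, n = 3), a difference of 4.10 with a standard error of 0.39 (limma adjusted p = 0.000796), or 3.32 with 32 added to the linear values. A second probe set of SNRPN differed by 2.19. SNRPB, the gene of the SmB protein whose place SmN takes in the Sm ring, was at 11.96 ± 0.04 in OBGF400 and 12.03 ± 0.04 in PK15 and was not called (-0.07, limma adjusted p = 0.146).

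The other Sm ring genes were lower, all by less than 2-fold. SNRPG differed by -0.94, SNRPD1 by -0.77, SNRPF by -0.48 and SNRPD3 by -0.48. By spike scaling SNRPG was no longer called (-0.09, limma adjusted p = 0.602), and SNRPD1, SNRPF and SNRPD3 became 0.08, 0.36 and 0.37. The Sm ring therefore held 1 gene higher, 4 lower and 1 not called of 6 measured. For comparison, 23.9% of all genes were higher and 36.8% lower, or 28.3% and 43.6% of those not at the floor.

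The proteins specific to the U1 and U2 snRNPs differed from one another. SNRPA, which binds a stem-loop of the U1 RNA, read 9.08, 9.61 and 9.22 in OBGF400 and 11.10, 11.47 and 11.33 in PK15. All OBGF400 arrays lay below all PK15 arrays, with means of 9.30 ± 0.28 and 11.30 ± 0.19 (SD, n = 3) and a difference of -2.00 (limma adjusted p = 0.000676). SNRPC, the other U1 protein measured, was lower by a smaller step (-0.64), which became 0.21 by spike scaling. The U2 genes SNRPA1 (-0.11) and SNRPB2 (0.14) were not called.

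LSM genes were the family with every measured member lower as deposited. All 6 were lower in OBGF400, with a median of -1.41, against 36.8% of all genes lower and 43.6% of those not at the floor, although spike scaling left only LSM3, LSM6 and LSM12 lower and made LSM14A higher. LSM2, LSM3, LSM6 and LSM7 belong to the ring that holds the U6 RNA and, in another form, to the cytoplasmic ring that promotes mRNA decay. LSM6 read 7.29, 7.38 and 7.05 in OBGF400 and 10.27, 10.32 and 10.18 in PK15. The arrays of each line lay close together and far from those of the other, at 7.24 ± 0.17 and 10.26 ± 0.07 (SD, n = 3), a difference of -3.02 (limma adjusted p = 2.95e-05).

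LSM3 read 9.35, 9.51 and 9.51 in OBGF400 and 11.38, 11.40 and 11.29 in PK15, a difference of -1.90. LSM12, which lies outside these rings, read 6.93, 6.93 and 7.03 in OBGF400 and 8.73, 8.79 and 8.71 in PK15, a difference of -1.78. Its second probe set, with means of 2.13 and 2.64, was not called (-0.51). LSM2 read 8.41, 8.61 and 8.51 in OBGF400 and 9.50, 9.67 and 9.51 in PK15, a difference of -1.05. In all 3 genes the highest OBGF400 array was below the lowest PK15 array. LSM7 (-0.59) and LSM14A (-0.41), a protein of cytoplasmic mRNA granules, were lower by less and became 0.26 and 0.44 by spike scaling. LSM7 did not pass once any OBGF400 replicate was left out (-0.60, -0.61 and -0.56 without 1, 2 and 3).

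The branch-site complex divided by subunit. Of 7 SF3A and SF3B genes, 4 were lower and 1 higher in OBGF400, with a median of -0.62, beside the same backgrounds, but spike scaling called 3 higher with 0 lower and dap/thr scaling 6 lower with 0 higher. SF3B5, a small subunit, read 10.99, 11.01 and 10.80 in OBGF400 and 11.97, 12.34 and 11.96 in PK15, a difference of -1.16 (limma adjusted p = 0.00155). SF3B6, which contacts the branch-site adenosine, differed by -1.00, SF3B4 by -0.84 and SF3B2 by -0.62. SF3B1, the large scaffold subunit, read 11.87, 11.83 and 11.95 in OBGF400 and 11.16, 11.51 and 11.48 in PK15, with no overlap and a difference of 0.50 (limma adjusted p = 0.0152). It did not pass without OBGF400 replicate 1 (0.51) or 3 (0.47). SF3A1 (9.12 ± 0.09 against 9.49 ± 0.32, -0.37) and SF3A3 (0.01) were not called.

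Neither U2AF gene was called. U2AF2, the subunit that recognises the pyrimidine tract, was at the floor of 2.13 on all 6 arrays by its only named probe set, which gives no level for either line. U2AF1L4, related to the small subunit, differed by -0.21 with overlapping arrays. U2AF1, the small subunit itself, was not analysed here, and nor were PRPF8, LSM4, HNRNPLL, RBM10, RBM20, RBM24, RBM38 and RBM47.

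PRPF genes went both ways, with 5 of 9 higher and 3 lower in OBGF400 and a median of 0.23, beside 23.9% of all genes higher and 28.3% of those not at the floor, whereas spike scaling called 7 higher with 0 lower and dap/thr scaling 5 lower with 1 higher. PRPF18, a factor of the second splicing step, read 9.38, 9.56 and 9.52 in OBGF400 and 7.67, 7.62 and 7.55 in PK15. The lines were clearly apart, at 9.49 ± 0.09 and 7.61 ± 0.06 (SD, n = 3), a difference of 1.87 (limma adjusted p = 2.95e-05). PRPF39, a protein associated with the U1 snRNP, read 9.79, 9.91 and 10.08 in OBGF400 and 8.60, 8.86 and 9.02 in PK15, a difference of 1.10 that its second probe set shared (1.55). PRPF19, a ubiquitin ligase needed for spliceosome activation, was higher by 0.94 (9.87 ± 0.02 against 8.93 ± 0.24, SD, n = 3), the kinase PRPF4B by 0.73 and PRPF4 by 0.23.

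The PRPF genes lower in OBGF400 included proteins of the U4/U6 particle. PRPF31 read 7.37, 7.18 and 7.36 in OBGF400 and 8.14, 8.51 and 8.25 in PK15, a difference of -1.00 (limma adjusted p = 0.00161). PRPF3 differed by -0.90, while PRPF4, the partner of PRPF31 and PRPF3 in that particle, was among the genes higher. PRPF38A differed by -0.41. PRPF4B did not pass once any OBGF400 replicate was left out (0.75, 0.72 and 0.71 without 1, 2 and 3). PRPF4 passed only with OBGF400 replicate 1 left out or with all arrays, its difference lying at 0.20 to 0.24 without OBGF400 replicate 2 or 3 or any PK15 replicate.

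Of 11 SRSF genes as deposited, 7 were lower in OBGF400, 2 were higher and 2 did not pass, at a median of -0.47, beside 36.8% of all genes lower and 43.6% of those not at the floor, whereas spike scaling called 5 higher with 2 lower and dap/thr scaling 10 lower with 0 higher. SRSF1, the classical SR protein that promotes exon inclusion, read 11.12, 11.33 and 11.27 in OBGF400 and 13.05, 13.27 and 12.55 in PK15. The PK15 arrays were all higher, though PK15 replicate 3 was nearer to OBGF400 than the others. The means were 11.24 ± 0.11 and 12.96 ± 0.37 (SD, n = 3), a difference of -1.72 (limma adjusted p = 0.00187), and the other probe sets of SRSF1 gave differences of -1.25 and -1.19.

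SRSF9, a short SR protein, read 10.99, 11.15 and 11.03 in OBGF400 and 12.68, 12.85 and 12.69 in PK15, a difference of -1.69 (limma adjusted p = 5.86e-05). Its dimmer second probe set was not called (-0.99). SRSF12, a relative of the splicing repressor SRSF10, read 5.17, 5.28 and 5.59 in OBGF400 and 6.81, 6.56 and 6.23 in PK15, a difference of -1.18, or -0.78 with 32 added to the linear values. Both genes had arrays that did not overlap. SRSF4 (-0.76), SRSF10 (-0.73), SRSF11 (-0.47) and SRSF5 (-0.44) were lower by less, and each of these 4 changed sign by spike scaling. SRSF6 read 12.15, 11.96 and 12.15 in OBGF400 and 11.73, 11.57 and 11.64 in PK15, a difference of 0.44, and 5 of its 6 probe sets were called higher. SRSF3, the smallest SR protein, was higher by 0.33 (13.65 ± 0.05 against 13.32 ± 0.06, SD, n = 3). SRSF2 (13.25 ± 0.07 against 13.28 ± 0.06, -0.03) and SRSF7 (12.35 ± 0.03 against 12.41 ± 0.08, -0.06) were not called. Of the 4 genes with small falls, SRSF5 had means of 10.34 ± 0.11 against 10.78 ± 0.10.

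The hnRNP genes lay on both sides of 0. Of 17, 6 were higher (35.3%), 8 were lower (47.1%) and 3 did not pass, at a median of -0.02. Beside these stood 23.9% of all genes higher and 36.8% lower, or 28.3% and 43.6% of those not at the floor. Spike scaling called 10 hnRNP genes higher with 2 lower and dap/thr scaling 11 lower with 2 higher. HNRNPL, which binds CA repeats and regulates many exons, read 8.34, 8.37 and 7.86 in OBGF400 and 5.01, 5.01 and 5.34 in PK15. The groups were widely separated, at 8.19 ± 0.29 and 5.12 ± 0.19 (SD, n = 3), a difference of 3.07 (limma adjusted p = 0.000182), or 2.28 with 32 added to the linear values. HNRNPAB read 12.95, 13.20 and 13.02 in OBGF400 and 11.99, 11.95 and 12.19 in PK15, a difference of 1.02. HNRNPU, a nuclear scaffold protein, read 3.64, 3.71 and 3.67 against 2.22, 2.49 and 2.15, close to the floor, and its difference of 1.39 became 0.28 with 32 added.

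HNRNPH genes, whose proteins bind runs of G, did not move together. HNRNPH2 read 9.88, 9.81 and 9.99 in OBGF400 and 12.16, 11.85 and 11.66 in PK15, a difference of -1.99 (limma adjusted p = 0.000332). Its second probe set was also called lower, but by less (9.92 ± 0.05 against 10.89 ± 0.28, -0.97). HNRNPH3 read 9.93, 10.24 and 10.26 in OBGF400 and 11.82, 12.07 and 11.89 in PK15, a difference of -1.78. In both genes every OBGF400 array was below every PK15 array. HNRNPH1 went the other way, with 14.15, 13.99 and 14.04 in OBGF400 and 13.38, 12.90 and 13.41 in PK15, a difference of 0.83 (limma adjusted p = 0.00971), or -0.02 by dap/thr scaling. The related HNRNPF was not called (13.18 ± 0.02 against 13.20 ± 0.09, -0.02).

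Of the remaining hnRNP genes, HNRNPK (13.68 ± 0.04 against 13.20 ± 0.09, 0.48) and HNRNPA1, a repressor of many exons (13.30 ± 0.04 against 12.87 ± 0.09, 0.43), were higher, and both became negative by dap/thr scaling. HNRNPA2B1 (-0.90), HNRNPUL1 (-0.68), HNRNPA3 (-0.62), HNRNPD (-0.53), HNRNPC (-0.50) and HNRNPR (-0.30) were lower, and each but HNRNPA2B1 turned positive by spike scaling. HNRNPR did not pass without OBGF400 replicate 1 (-0.27), OBGF400 replicate 3 (-0.30) or PK15 replicate 1 (-0.30). HNRNPD had means of 12.97 ± 0.05 against 13.50 ± 0.18 and HNRNPC of 10.78 ± 0.02 against 11.29 ± 0.14. HNRNPM (11.61 ± 0.08 against 11.38 ± 0.11, 0.23) and HNRNPDL (0.05) were not called.

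Of 22 RBM genes as deposited, 10 were higher in OBGF400, 6 were lower and 6 did not pass, at a median of 0.24, beside 23.9% of all genes higher and 28.3% of those not at the floor, while spike scaling called 18 higher with 1 lower and dap/thr scaling 12 lower with 2 higher. RBMS1, a protein that binds single-stranded nucleic acids, read 7.76, 7.88 and 7.90 in OBGF400 and 5.24, 6.05 and 6.04 in PK15. PK15 replicate 1 was the lowest array, and the groups did not overlap, at 7.85 ± 0.07 and 5.78 ± 0.46 (SD, n = 3), a difference of 2.07 (limma adjusted p = 0.00192). Its paralogue RBMS2 was not called (0.18).

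RBM18 read 11.27, 11.28 and 11.22 in OBGF400 and 9.64, 9.44 and 9.60 in PK15, a difference of 1.70 (limma adjusted p = 3.6e-05), and its second probe set gave 1.82. RBM5, a regulator of exons in apoptosis genes, read 10.37, 10.34 and 10.28 in OBGF400 and 9.15, 9.17 and 9.25 in PK15, a difference of 1.14. RBM17, a factor acting at the end of the intron, read 10.13, 9.95 and 9.89 in OBGF400 and 9.00, 8.88 and 9.05 in PK15, a difference of 1.01. All 3 genes had arrays that did not overlap. RBM6, the gene next to RBM5 in the RefSeq annotation of Sscrofa11.1 and related to it, was not called (0.17).

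The other RBM genes higher in OBGF400 were RBM4 (9.54 ± 0.09 against 8.68 ± 0.22, 0.86), an exon regulator, RBM7 (0.81), a protein that leads RNA to the nuclear exosome, RBM39 (11.41 ± 0.04 against 10.62 ± 0.10, 0.79), a U2AF-related cofactor, its paralogue RBM23 (0.55), RBM12B (0.71) and RBM48 (0.69), a protein of the minor spliceosome. By dap/thr scaling none of these 6 genes was called higher, RBM4 lying at 0.01. RBM8A, which forms the core of the exon junction complex with MAGOH, read 10.00, 10.08 and 10.14 in OBGF400 and 11.69, 11.78 and 11.66 in PK15. The lines lay far apart relative to their spread, with a difference of -1.64 (limma adjusted p = 2.7e-05), although its second probe set was not called (-0.23). RBM34 (-0.97), RBM42 (-0.90), the cold-inducible RBM3 (13.03 ± 0.03 against 13.62 ± 0.07, -0.59), RBMX (11.47 ± 0.08 against 11.89 ± 0.05, -0.42) and RBM26 (-0.34) were also lower. The nucleolar RBM19 (-0.40) and RBM28 (-0.10), the U1-associated RBM25 (8.63 ± 0.23 against 8.67 ± 0.23, -0.04) and RBM15B (0.30) were not called.

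Several probe sets for a gene allowed the direction to be read again. Of the 32 members with more than 1 probe set, 11 had all probe sets called in 1 direction, 17 had calls in 1 direction with some probe sets not called, 3 had none called and 1, HNRNPA2B1, had calls in both directions (limma over all probe sets). That share, 3.12%, was near the 3.8% of all genes with several probe sets. The brightest HNRNPA2B1 probe set read 12.73, 12.84 and 12.77 in OBGF400 and 13.67, 13.57 and 13.80 in PK15 (-0.90). The next read 9.20, 9.07 and 8.96 against 7.12, 7.11 and 7.19 (1.93), and the dimmest 7.68, 7.76 and 7.71 against 4.22, 5.61 and 5.56 (2.59). The direction of HNRNPA2B1 therefore depended on the probe set, and the mean over its probe sets differed by 1.21.

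In other members the size, and for some the sign, varied among probe sets. SF3B1 gave 0.50 with its brightest probe set and 2.58 with the other, which read 10.60, 10.93 and 10.73 in OBGF400 and 8.31, 8.03 and 8.17 in PK15. RBM5 gave 1.14 with the brightest and 2.59 with the second, and the remaining one lay at the floor. LSM6 gave -3.02, then -1.00, and the remaining probe set was at the floor. For HNRNPC (0.43) and HNRNPUL1 (0.65) the dimmer probe set had the opposite sign without a call, and the mean over probe sets was -0.04 and -0.02, with the call lost. SRSF10 (0.53), HNRNPR (0.12), RBM26 (0.17) and RBM39 (-0.02) each had 1 dimmer probe set of the opposite sign, also without a call. SNRPA1 and RBM15B, not called by their brightest probe set, had a dimmer one called higher by 1.24 and 1.46.

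**Figure D3:**
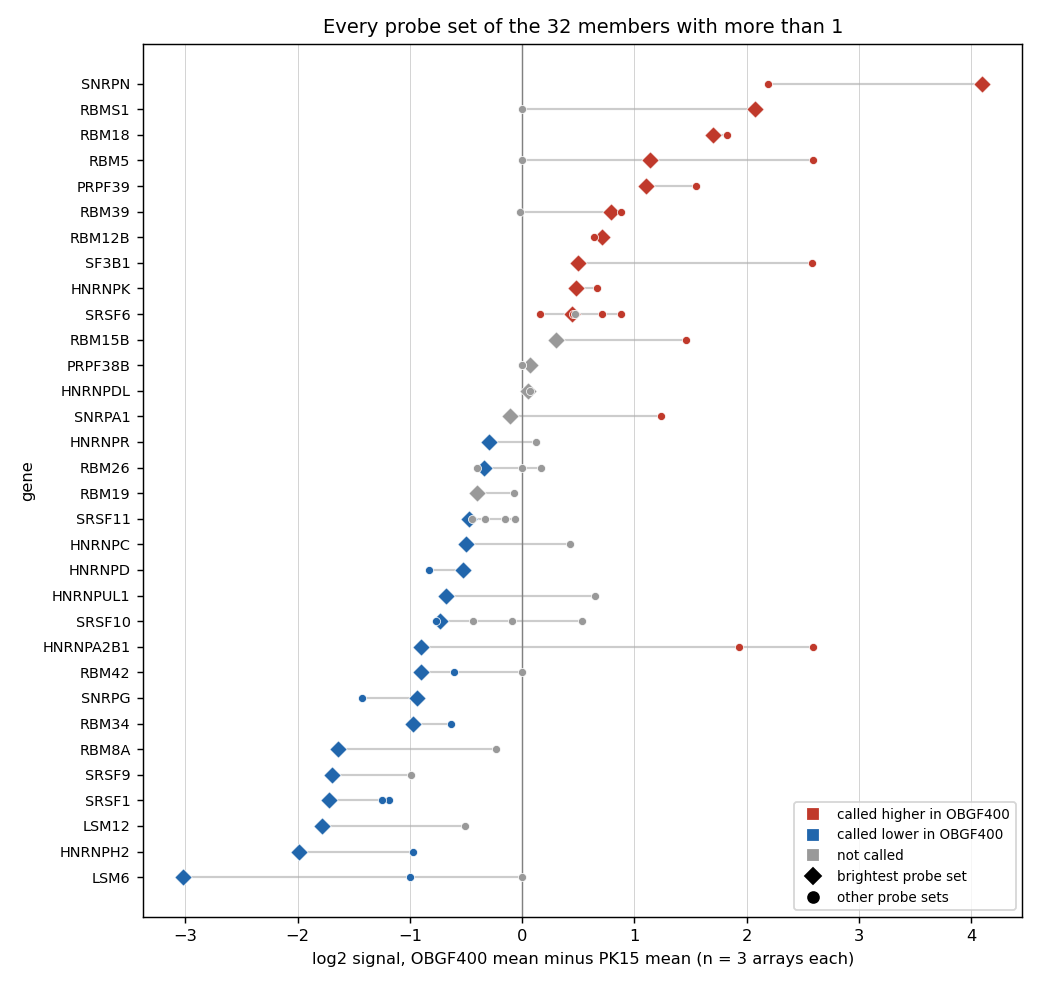
Difference between the lines for every probe set of the 32 members with more than 1, on the log2 scale, the diamond marking the brightest probe set and the colour its call. HNRNPA2B1 runs from -0.90 to 2.59 with calls on both sides of 0, while SRSF1 and SNRPN keep every probe set on 1 side.

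Splicing genes outside the symbol rule were read from lists set by function. Their values are those of the brightest probe set, and any other probe sets of these genes are not given singly here. Of 165 listed, 95 were measured, 26 were higher and 39 lower in OBGF400, with a median of 0.00, against 23.9% and 36.8% of all genes, and spike scaling called 64 higher with 11 lower, dap/thr scaling 71 lower with 5 higher. ESRP1, the epithelial splicing regulator, read 2.45, 2.51 and 2.45 in OBGF400 and 7.42, 7.78 and 7.49 in PK15. It was near the floor on every OBGF400 array, with a difference of -5.09 (limma adjusted p = 7.62e-06), or -2.56 with 32 added to the linear values. QKI, a regulator known from mesenchymal and glial cells, read 11.76, 11.72 and 11.70 in OBGF400 and 8.70, 8.15 and 8.77 in PK15, a difference of 3.19 (limma adjusted p = 0.000159). RBFOX2, which binds a short motif beside exons, read 11.56, 11.49 and 11.51 in OBGF400 and 10.12, 10.33 and 10.24 in PK15, a difference of 1.29 (limma adjusted p = 7.71e-05). Neither QKI nor RBFOX2 overlapped between the lines, and both were called higher by spike scaling. By dap/thr scaling QKI was still called higher, whereas RBFOX2 was not (0.44, limma adjusted p = 0.0545).

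Of 22 measured regulators of this kind, 9 were higher and 6 lower as deposited. The background was 23.9% of all genes higher and 36.8% lower, or 28.3% and 43.6% of those not at the floor. Spike scaling called 16 higher with 3 lower and dap/thr scaling 13 lower with 1 higher. PTBP1, a repressor of neuronal exons, read 12.13, 12.27 and 12.26 in OBGF400 and 11.31, 11.41 and 11.42 in PK15, a difference of 0.84, or -0.02 by dap/thr scaling. TAF15, an RNA-binding protein, was lower by 2.70 on the log2 scale (6.36 ± 0.02 against 9.07 ± 0.24, SD, n = 3). CELF2 was lower (2.26 ± 0.11 against 3.94 ± 0.22, SD, n = 3), a difference of -1.68 that became -0.37 with 32 added. The neuronal regulator ELAVL4 was at the floor in both lines, as were CELF4 and KHDRBS3. These 3 genes entered the counts by control scaling only through its constant shift.

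SR protein kinases and SR-related proteins held 4 higher and 4 lower of 13 measured, or 30.8% each. Of all genes 23.9% were higher and 36.8% lower, and of those not at the floor 28.3% and 43.6%. The counts became 10 higher with 1 lower by spike scaling and 9 lower with 1 higher by dap/thr scaling. CLK4, a kinase that phosphorylates SR proteins, read 8.93, 8.82 and 8.79 in OBGF400 and 7.49, 7.35 and 7.43 in PK15, a difference of 1.42. Its relative CLK3 was lower (-1.11). The large nuclear speckle proteins SON (1.08) and SRRM2 (1.06) were higher, and PPIG was lower (-1.52).

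Spliceosome proteins outside the rule held 11 higher and 19 lower of 40 measured, or 27.5% and 47.5%. These shares were near the 28.3% higher and 43.6% lower of genes not at the floor (23.9% and 36.8% of all genes). The counts became 27 higher with 5 lower by spike scaling and 31 lower with 2 higher by dap/thr scaling. PPIH, a cyclophilin of the U4/U6 particle, read 7.55, 7.74 and 7.65 in OBGF400 and 10.68, 10.86 and 10.52 in PK15, a difference of -3.04. ZMAT5, a protein of the minor spliceosome, differed by -2.58 (6.27 ± 0.23 against 8.86 ± 0.30, SD, n = 3). SNRNP200, the helicase that unwinds U4 from U6, read 10.43, 10.32 and 10.33 in OBGF400 and 8.51, 8.82 and 8.82 in PK15, a difference of 1.64. None of these 3 genes overlapped between the lines, and none changed sign under either control scaling.

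Genes of snRNP assembly held 7 lower and 1 higher of 11 measured, beside 36.8% of all genes lower and 43.6% of those not at the floor, which became 5 higher with 1 lower by spike scaling and 10 lower with 1 higher by dap/thr scaling. SNUPN, the import adaptor that carries assembled snRNPs into the nucleus, read 8.14, 7.77 and 8.19 in OBGF400 and 9.91, 10.14 and 9.88 in PK15, a difference of -1.94. WDR77 (-1.01) and PRMT5 (-0.68), which together methylate Sm proteins, were lower, and by spike scaling lay at -0.16 and 0.17. SMN1 (0.02) and GEMIN2 (0.01) were not called. GEMIN5, which recognises the small nuclear RNAs, was higher (10.14 ± 0.13 against 8.75 ± 0.05, SD, n = 3), by 1.39. Of 9 exon junction and export genes, 1 was higher and 3 lower (11.1% and 33.3%). Among all genes these shares were 23.9% and 36.8%, and among those not at the floor 28.3% and 43.6%. Spike scaling called 6 of the 9 higher with 1 lower and dap/thr scaling 8 lower with 0 higher. The export adaptor ALYREF differed by -1.43, and MAGOH, the partner of RBM8A, was not called (-0.36).

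**Figure D4:**
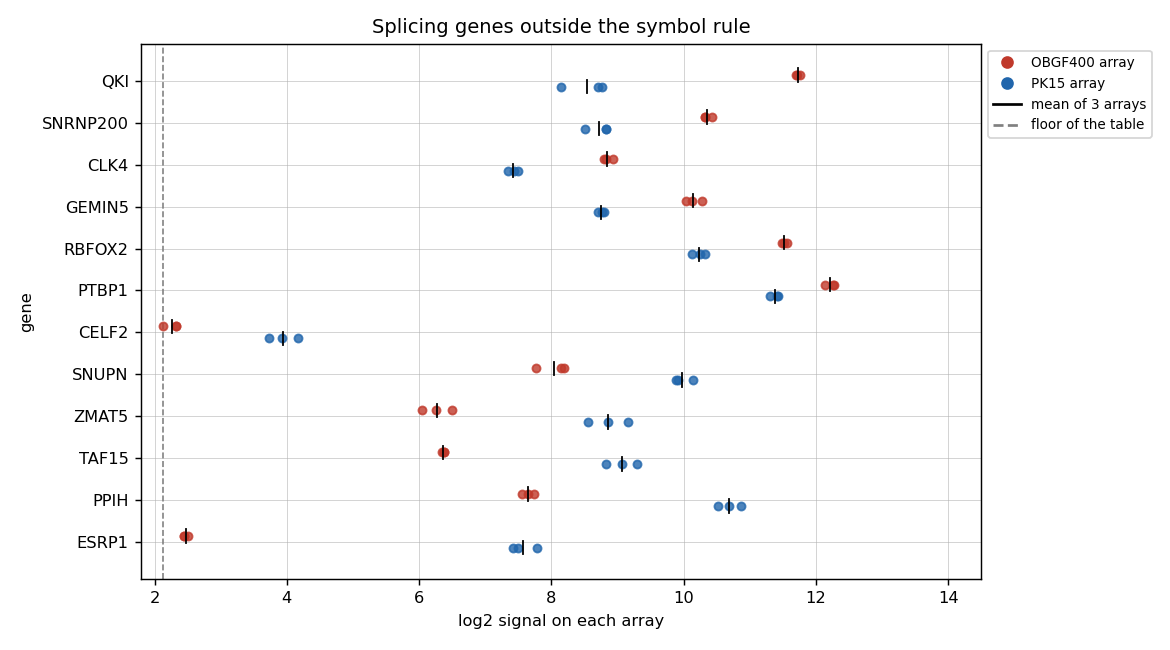
Log2 signal on every array for 12 splicing genes outside the symbol rule, ordered by their difference, with a bar at the mean of 3 arrays and the floor of 2.13 dashed. ESRP1 lies at 2.45 to 2.51 in OBGF400 and at 7.42 to 7.78 in PK15, and QKI shows the reverse order of the lines.

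Ratios of a pair of genes on the same array do not change when all log2 signals of that array are shifted alike, as by the control scalings. They show that 2 genes changed unequally without saying which did. Other normalizations, a constant added to the linear values or another probe set of a gene can change them. The ratios given here use the brightest probe sets and the deposited values. The pairs were chosen as functional partners or relatives with the values known, so these ratios are a description. From PK15 to OBGF400 the log2 ratio of SNRPN to SNRPB changed by 4.16 (standard error 0.39), that of HNRNPH1 to HNRNPH2 by 2.82 (0.22) and that of HNRNPH1 to HNRNPH3 by 2.61 (0.28). The ratio of SRSF6 to SRSF1 changed by 2.16 (0.26), that of SF3B1 to SF3B5 by 1.66 (0.15) and that of PRPF18 to PRPF31 by 2.87 (0.16). For the neighbouring genes RBM5 and RBM6 it changed by 0.97 (0.12). Outside the rule, the ratio of CLK4 to CLK3 by 2.53 (0.11), that of PTBP1 to PTBP3 by 1.35 (0.11) and that of TRA2A to TRA2B by 0.72 (0.06).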

How the data were processed

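The authors' deposited table gives log2 signals per probe set for 6 Affymetrix porcine arrays; 8 µg of total RNA per pool was labelled with biotin, per the labels' protocols. The submitters' processing notes name affy, with background correction, summarisation and normalization not given in the sources used here. Of 24123 probe sets, 124 controls were left out. Of the 23999 tested, 10069 had 1 symbol, 198 several and 13732 none. All 84 members matched RefSeq (Sscrofa11.1) by Entrez number, with 0 renamed. Probe coordinates are left out because the sources name no build.

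OBGF400 and PK15 were tested against each other by limma 3.58.1 (lmFit and eBayes, two-sided) in R 4.3.3, adjusted over 6765 genes, or over 23999 probe sets where several were compared; tables used Python 3.11.15. The fit was tested on simulated data with independent noise and few changed genes, which does not test the scaling of the arrays. The number of arrays limits the precision. Members and lists were chosen with earlier results of these data known. Values on every array are given for called members differing at least 2-fold and each family's largest called differences, with at least means for a fixed set of members and, among other splicing genes, for the 5 largest called rises and falls and a fixed set of regulators. Alternatives are listed in the closing section. No sequences were used here.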

Additional observations from a re-analysis of the deposited data

How the results depend on the processing

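The control scalings decided most directions. Members called numbered 65 as deposited and 54 to 67 over the other settings. Spike scaling (hybridization control scaling) called 51 members higher with 9 lower, and 64 other splicing genes higher with 11 lower. By dap/thr scaling (poly-A control scaling) 6 members were higher with 61 lower, and 5 other splicing genes higher with 71 lower. Which scaling is nearer to the RNA content was not tested. By spike scaling these genes turned positive: SNRPD1 (0.08), SNRPC (0.21), SNRPF (0.36), SNRPD3 (0.37), SNRPA1 (0.74), SNRPB (0.78), LSM7 (0.26), LSM14A (0.44), SF3B4 (0.01), SF3B2 (0.23), SF3A1 (0.48), U2AF1L4 (0.64), PRPF38A (0.44), SRSF4 (0.09), SRSF10 (0.12), SRSF11 (0.38), SRSF5 (0.41), SRSF7 (0.78), SRSF2 (0.82), HNRNPUL1 (0.16), HNRNPA3 (0.23), HNRNPD (0.32), HNRNPC (0.35), HNRNPR (0.55), HNRNPF (0.83), RBM3 (0.26), RBMX (0.43), RBM19 (0.45), RBM26 (0.51), RBM28 (0.74) and RBM25 (0.81). By dap/thr scaling these turned negative: SNRPB2 (-0.71), SF3A3 (-0.84), SF3B1 (-0.35), PRPF38B (-0.78), PRPF4 (-0.62), PRPF4B (-0.13), SRSF3 (-0.53), SRSF6 (-0.41), HNRNPDL (-0.80), HNRNPM (-0.62), HNRNPA1 (-0.42), HNRNPK (-0.37), HNRNPH1 (-0.02), RBM6 (-0.68), RBMS2 (-0.67), RBM15B (-0.55), RBM23 (-0.31), RBM48 (-0.16), RBM12B (-0.15), RBM39 (-0.06), RBM7 (-0.05) and PTBP1 (-0.02). When probe sets of a gene were averaged, SNRPA1 (0.57) and HNRNPA2B1 (1.21) turned positive. Quantile normalization, median centring, a filter on dim probe sets, a trended and robust variance, array weights, 32 added to the linear values, a threshold of 0.01 and leaving out single arrays turned the sign of no called gene among those followed. Leaving out 1 array gave 60 to 66 members called, 22 to 25 higher and 38 to 41 lower, and 57 to 63 other splicing genes called, 21 to 28 higher and 34 to 39 lower. The labels do not say whether the replicate numbers pair the samples. Correlations of deviations between same-numbered arrays were 0.01 to 0.04, which cannot exclude a shared processing step. With the replicate number as a block, 58 members and 57 other splicing genes were called. Control scalings move genes at the floor by a constant, so no direction can be read for U2AF2. The member counts by control scaling include U2AF2, and those of other splicing genes include CELF4, ELAVL4 and KHDRBS3, also at the floor. Beyond the scaling, signals near the floor limit HNRNPU, CELF2 and the low level of ESRP1.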

Other observations

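RNA-processing genes outside splicing were grouped by symbol after the data were seen, so the groups are a description. All 6 measured nuclear exosome genes, which degrade nuclear RNA from its end, were lower in OBGF400 as deposited, whereas by spike scaling 2 were lower and 2 higher. Their median difference was -0.98, and 36.8% of all genes, or 43.6% of those not at the floor, were lower. The largest difference was that of EXOSC5, with 8.34 ± 0.42 in the OBGF400 arrays against 10.29 ± 0.16 in those of PK15 (SD, n = 3), or -1.95 (limma adjusted p = 0.0021). RBM7, which directs RNA to that complex, went the other way, as given above.

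Of 12 genes of cleavage and polyadenylation, 6 were lower, 1 was higher and 5 were not called, beside the same background, which became 7 higher with 3 lower by spike scaling and 11 lower with 0 higher by dap/thr scaling. WDR33, which recognises the polyadenylation signal, averaged 7.52 ± 0.07 in OBGF400 against 9.37 ± 0.07 in PK15 (SD, n = 3), or -1.85. CLP1, an RNA kinase of the cleavage complex, was the gene higher (1.23). Of 4 nonsense-mediated decay genes, 3 were not called and 1, UPF3B, was lower, beside the same background. Among those not called, UPF3A (2.43 in both lines) and SMG9 (3.51 against 3.46) had signals close to the floor. The counts became 2 higher with 1 lower by spike scaling and 4 lower with 0 higher by dap/thr scaling. UPF3B, which links the exon junction complex to decay, averaged 6.41 ± 0.18 against 8.41 ± 0.04 (SD, n = 3) by the brightest of its 5 probe sets. Of 4 genes of m6A writing, reading and removal, 3 were lower and 1 was higher. Beside this, 36.8% of all genes were lower and 23.9% higher, or 43.6% and 28.3% of those not at the floor. The m6A counts became 2 higher with 0 lower by spike scaling and 4 lower with 0 higher by dap/thr scaling.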
